A study of Homo sapiens with 12 samples.

Results

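The IFIT and IFITM genes encode antiviral effector proteins that cells make in response to interferon. The 7 members described here are the rows of the expected-count table with the symbols IFIT1, IFIT2, IFIT3, IFIT5, IFITM1, IFITM2 and IFITM3, out of 26341 genes, and all 7 were among the 15890 genes that passed the filter on low counts. The cells were of DU145, a prostate cancer line that came from a metastasis in the central nervous system. They received the DMSO vehicle (Ctrl), 2 nM triptolide (TPL), 33 nM decitabine (DAC) or both drugs (DACTPL) once daily for 3 days, and RNA was taken after a further 17 days without drug. The 2 label fields disagree on decitabine in DACTPL, with 33 nM under the characteristics and 3 nM under the protocol, and this could not be resolved. At 3 nM, DACTPL would differ from DAC by decitabine dose as well as by triptolide. Decitabine is a cytidine analogue that traps DNA methyltransferases on DNA, and triptolide blocks the XPB helicase of the transcription factor TFIIH.

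IFIT proteins are built from tetratricopeptide repeats and bind RNA in the cytoplasm. IFIT1 recognises RNA whose cap lacks the methyl mark of host messages and blocks its translation, IFIT3 binds IFIT1 and stabilises it, IFIT2 joins complexes with both, and IFIT5 binds RNA with a triphosphate end on its own. IFITM proteins are small membrane proteins that hinder the fusion of enveloped viruses with the cell, IFITM1 mainly at the plasma membrane and IFITM2 and IFITM3 mainly in endosomes. Interferons bind their receptors, JAK kinases phosphorylate transcription factors, and these join IRF9 to bind a response element in the promoters of such genes. Loss of DNA methylation is known to switch on silenced repeats whose RNA can be sensed as viral, which engages the same pathway.

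Each group had 3 libraries, with 26.4 to 47.0 M expected counts. Nothing in the labels says whether replicates came from separate cultures, and p-values therefore cover the spread among the deposited libraries alone, which could be technical. Levels are given as CPM, the count scaled to a common library size. The epithelial markers summed to 2171 to 2260 CPM in Ctrl, 2042 to 2356 in TPL, 2495 to 2763 in DAC and 2386 to 2517 in DACTPL, so both decitabine groups lay above both others. The single markers did not move as 1. KRT8 had 659 to 677 CPM in Ctrl and 860 to 944 in DAC, and KRT18 was also higher in DAC. EPCAM went the other way, at 122.5 to 127 CPM in Ctrl and 106 to 112 in DAC, and KRT19 and CDH1 overlapped. Fibroblast markers summed to 8.22 to 10.7 CPM in Ctrl, 7.94 to 11.9 in TPL, 8.09 to 12.2 in DAC and 12.7 to 14.5 in DACTPL, the only group that stood apart. Leukocyte markers summed to 5.61 to 8.13 CPM. The 4 endothelial markers summed to 1.37 to 1.76 CPM in Ctrl, 1.05 to 2.10 in TPL, 3.56 to 4.07 in DAC and 3.99 to 4.83 in DACTPL, so their sum also moved with decitabine. CDH5 had 0.31 to 0.47 CPM in Ctrl and 1.86 to 2.19 in DAC, and PECAM1 was also higher in DAC, while VWF and KDR overlapped. The part of these sums in the results below was not tested. Libraries differed in how their gene levels related to gene length. Across 13181 coding genes the Spearman correlation of a library's deviation with length lay between -0.41 and -0.23 in replicates 1 and 2 of TPL and DAC and in DACTPL replicate 1, and between 0.09 and 0.30 in the other 7 libraries. Genes are not independent replicates. The 3 IFITM genes are among the shortest (length percentiles 2.99 to 3.87) and the IFIT genes are of middle length (43.8 to 75.7).

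The response element is the sequence feature that ties these genes to interferon signalling, so the stretch of each promoter that holds it is shown. The motif searched was its core, GAAA, any 2 bases, GAAA, on both strands. Windows from 250 bases before to 50 bases after the start came from RefSeq (GRCh38.p14), in a table that held 6 windows for 5 of the 7 members. IFIT2 and IFITM2 are not shown. Each stretch below is written 5′ to 3′ on the strand of its gene with the motif in capitals. The IFIT genes lie on chromosome 10 and the IFITM genes on chromosome 11.
IFIT1 (chr10:89392497-89392539, + strand): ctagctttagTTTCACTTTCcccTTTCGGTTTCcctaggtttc
IFIT3, first start (chr10:89327831-89327894, + strand): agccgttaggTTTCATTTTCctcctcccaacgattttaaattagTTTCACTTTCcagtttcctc
IFIT3, second start (chr10:89332425-89332497, + strand): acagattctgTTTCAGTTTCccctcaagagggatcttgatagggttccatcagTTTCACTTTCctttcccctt
IFIT5 (chr10:89414513-89414583, + strand): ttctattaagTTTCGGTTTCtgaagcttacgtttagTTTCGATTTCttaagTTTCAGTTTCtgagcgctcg
IFITM1 (chr11:313990-314053, + strand): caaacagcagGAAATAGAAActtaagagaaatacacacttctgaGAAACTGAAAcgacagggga
IFITM3 (chr11:320876-320922, - strand): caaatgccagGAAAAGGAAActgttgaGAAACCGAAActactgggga

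Each of the 6 windows held the motif at least 2 times, and that of IFIT5 held it 3 times. Among 35116 promoter windows of the same length, 3.57% held it at least once, 0.26% at least 2 times and 0.04% at least 3 times. In the IFIT windows every match read as TTTC on the strand of the gene, and in the IFITM windows as GAAA. The matches of IFIT1 began at positions -116 and -103 from the start and those of IFIT3 at -156 and -122 for its first start and at -94 and -51 for its second. In IFIT5 they began at -45, -19 and -4, in IFITM1 at -40 and -6, and in IFITM3 at -52 and -35. The windows held 4 CpG in IFIT1, 5 and 1 in the 2 windows of IFIT3, 16 in IFIT5, 3 in IFITM1 and 8 in IFITM3, beside a median of 14 over all windows. The map of motif matches sets these positions side by side. A match describes the letters of the window and was not tested for binding, and methylation was not measured in the files used here.

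**Figure D1:**
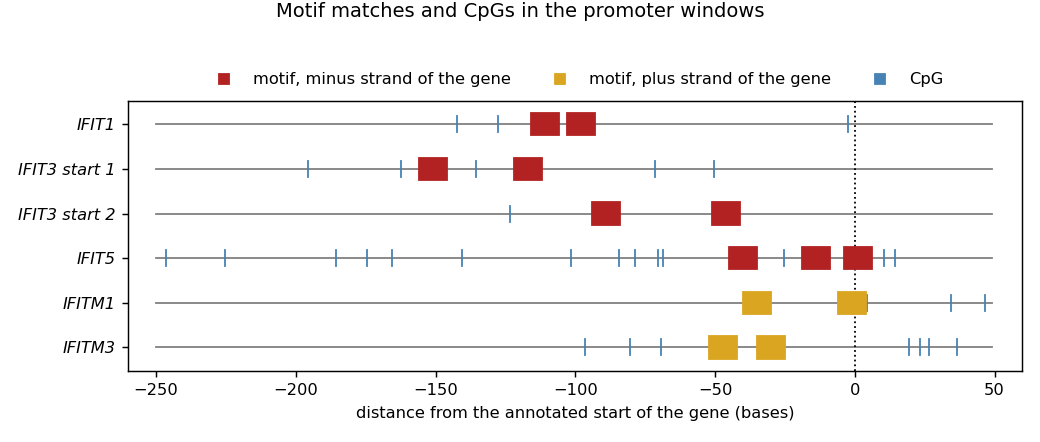
Positions of motif matches (boxes, coloured by the strand on which GAAA reads) and CpGs (blue ticks) in the 6 promoter windows, as distance in bases from the annotated start. The IFITM matches lie within 52 bases before the start, and those of IFIT1 and of the first start of IFIT3 lie further away.

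In vehicle-treated cells the membrane family was the more abundant. The deposited TPM values, which are scaled for depth and gene length, were 98.3 ± 15.7 for IFITM3 and 55.9 ± 3.39 for IFITM2 (SD, n = 3). IFITM1, IFIT1, IFIT2, IFIT3 and IFIT5 had means from 4.43 TPM (IFIT1) to 6.93 TPM (IFIT3). Thus IFITM3 made up 61.0 ± 4.42% of the TPM of its family in Ctrl, IFITM2 35.1 ± 5.00% and IFITM1 3.93 ± 0.623%. The IFIT family was more even, with shares from 20.2% for IFIT1 to 31.8% for IFIT3.

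Decitabine alone was set against vehicle at the single time sampled, when the drug had been withdrawn. Of the 7 members 6 rose and none fell, beside 6.27% of all genes tested that were called higher. A call is an adjusted p below 0.05 in edgeR's quasi-likelihood test with Benjamini-Hochberg adjustment over all genes tested, two-sided. The median log2 fold change was 1.26 over the 7 members and 0.01 over all genes tested. The rise was 5.30-fold for IFIT2 and 5.31-fold for IFIT3, 3.65-fold for IFIT1, 2.40-fold for IFITM1, and 1.53-fold and 1.54-fold for IFIT5 and IFITM3. IFITM2 did not pass. In RNA from whole cultures, more expressing cells and more RNA per cell cannot be told apart.

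IFIT1 had 12.8, 13.1 and 17.9 CPM in replicates 1 to 3 of Ctrl, against 52.3, 51.2 and 56.6 CPM in those of DAC. The groups did not overlap, and every DAC library was far above the highest Ctrl library, at a log2 fold change of 1.87 (SE 0.14, edgeR adjusted p = 4.35e-06). The share of all genes without overlap was not counted for DAC against Ctrl. IFIT2, its partner in RNA-binding complexes, had 11.5, 11.3 and 15.1 CPM in Ctrl, against 69.5, 65.3 and 67.1 CPM in DAC. Its log2 fold change was 2.41 (SE 0.12, edgeR adjusted p = 7.24e-08). IFIT3, which stabilises IFIT1, had 12.3, 11.8 and 14.0 CPM in Ctrl, against 66.3, 67.5 and 68.8 CPM in DAC. It was the most reproducible of the 7 in DAC, with a coefficient of variation of 1.80%, and its log2 fold change was 2.41 (SE 0.08, edgeR adjusted p = 2.28e-09).

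The rise of IFIT5 was smaller in size than that of the other IFIT genes. It had 17.2, 18.3 and 15.1 CPM in Ctrl, against 28.1, 23.7 and 25.1 CPM in DAC, with no overlap and a log2 fold change of 0.61 (95% interval 0.40 to 0.81, edgeR adjusted p = 0.00132). Its interval did not reach those of the other 3 IFIT genes, the lowest of which began at 1.57. The difference between genes was not tested as such. As a share of the family's TPM, IFIT5 went from 25.8 ± 4.36% in Ctrl to 9.68 ± 0.752% in DAC, while IFIT3 went from 31.8 ± 0.774% to 42.3 ± 1.10%.

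Among the IFITM genes, IFITM1 was the scarcest, and it was the most variable of the 3 in Ctrl, TPL and DAC but the least variable in DACTPL (coefficient of variation 4.76%). It had 2.71, 2.08 and 3.41 CPM in Ctrl, against 5.27, 5.19 and 9.36 CPM in DAC, where replicate 3 stood above the other DAC libraries. The log2 fold change was 1.26 (95% interval 0.53 to 2.00, edgeR adjusted p = 0.0383), and 0.91 with an adjusted p of 0.0998 without DAC replicate 3. IFITM3 had 36.6, 33.4 and 46.1 CPM in Ctrl, against 52.5, 55.5 and 71.4 CPM in DAC, where replicate 3 was again the highest in both groups. Its log2 fold change was 0.62 (95% interval 0.26 to 0.99, edgeR adjusted p = 0.0356). Taking off each library's trend on gene length left 1.11 for IFITM1 (adjusted p = 0.111) and 0.46 for IFITM3 (adjusted p = 0.23), so neither passed, and both calls were lost in several further alternatives. IFITM2 had 24.4, 26.2 and 23.5 CPM in Ctrl, against 21.2, 22.7 and 25.6 CPM in DAC. These ranges overlapped, and the 95% interval of its log2 fold change ran from -0.27 to 0.10.

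**Figure D2:**
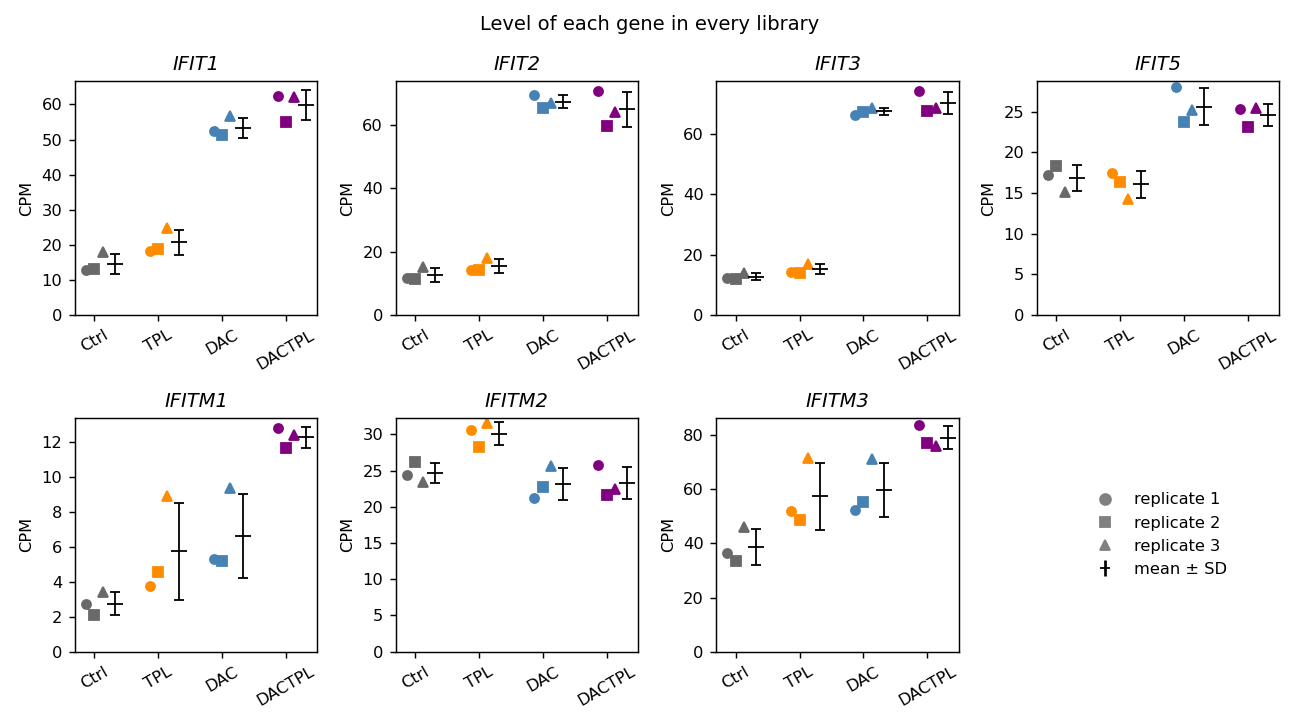
Normalised level (CPM, linear axis from 0) of the 7 genes in each of the 12 libraries, with marker shape for the replicate number and the mean ± SD beside each group. IFIT1, IFIT2 and IFIT3 sit between 51.2 and 74.5 CPM in DAC and DACTPL and between 11.3 and 24.8 CPM in Ctrl and TPL, whereas IFITM2 stays between 21.2 and 31.5 CPM throughout.

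The comparison of DACTPL with TPL shows the response to decitabine, at the unresolved dose of DACTPL, in cells that also had triptolide. It shares no library with DAC against Ctrl. In it 5 of the 7 members rose, beside 6.93% of all genes tested called higher, and 1 fell, beside 3.59% called lower. The 4 IFIT genes rose by log2 fold changes of 1.53 (IFIT1, edgeR adjusted p = 1.78e-05), 2.07 (IFIT2, 2.39e-07), 2.22 (IFIT3, 3.74e-09) and 0.62 (IFIT5, 0.0012). IFITM1 passed at an adjusted p of 0.0489 with a log2 fold change of 1.09, and 14 of 23 alternatives lost that call, among them leaving out any 1 library other than TPL replicate 3 or DAC replicate 3 (0.85 to 1.12). IFITM3 had a log2 fold change of 0.46 and did not pass (edgeR adjusted p = 0.101). Its groups did not overlap, but the share of all genes without overlap was not counted for this comparison. IFITM3 passed in 6 of 23 alternatives, among them DESeq2 (0.45, adjusted p = 0.0469), limma on log2(TPM + 1) (0.69, adjusted p = 0.016) and the fit without TPL replicate 3 (0.63, adjusted p = 0.0151). On the log2(TPM + 1) scale the median of all genes in this comparison was 0.16. The shares of all genes that passed in these alternatives are not given here.

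IFITM2 was the member that fell. It had 30.5, 28.3 and 31.5 CPM in TPL and 25.7, 21.6 and 22.4 CPM in DACTPL, a log2 fold change of -0.37 (95% interval -0.56 to -0.18, edgeR adjusted p = 0.0158). The Ctrl libraries lay between 23.5 and 26.2 CPM, so the TPL libraries were the ones that stood above the others. The call was lost on the TPM scale (-0.16, limma adjusted p = 0.235), with the length trend taken off (-0.28, adjusted p = 0.112), and without DACTPL replicate 2 (-0.32, adjusted p = 0.0728) or 3 (-0.35, adjusted p = 0.0631). On that TPM scale the median of all genes was itself shifted, to 0.16.

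The interaction term asks whether the response to decitabine differed with triptolide. It called none of the 7 members in edgeR, beside 0.00629% of all genes tested, and none in DESeq2, beside 0.865%. At an unadjusted p under 0.05 in edgeR there was 1 member, beside 16% of all genes tested. The term was -0.33 for IFIT1 (95% interval -0.74 to 0.08), -0.34 for IFIT2 (-0.69 to 0.02) and -0.19 for IFIT3 (-0.44 to 0.06) on the log2 scale. The lowest adjusted p was 0.285, for IFITM2 at -0.28 (95% interval -0.55 to -0.02). For IFITM1 the interval ran from -1.18 to 0.83, so differences within this wide range could not be told from none.

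With both drugs against vehicle, again 6 of 7 members rose, beside 8.64% of all genes tested called higher. This comparison shares the Ctrl libraries with DAC against Ctrl, so its values are only set beside those above. IFIT1 had 62.4, 55.0 and 62.1 CPM in DACTPL, IFIT2 70.9, 59.7 and 64.2 CPM, and IFIT3 74.5, 67.8 and 68.5 CPM. Their log2 fold changes against Ctrl were 2.03, 2.35 and 2.47, with edgeR adjusted p-values of 1.42e-06, 6.43e-08 and 1.15e-09. IFIT5 had 25.3, 23.0 and 25.4 CPM and a log2 fold change of 0.55 (edgeR adjusted p = 0.00206). The IFIT genes were thus 1.47-fold (IFIT5) to 5.53-fold (IFIT3) higher than in Ctrl.

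The IFITM genes that rose were highest with both drugs. IFITM1 had 12.8, 11.6 and 12.4 CPM in DACTPL, above all 9 other libraries. It was 4.40-fold higher than Ctrl (95% interval 2.68 to 7.25, edgeR adjusted p = 0.00166). IFITM3 had 84.0, 77.3 and 76.0 CPM, also above all 9 other libraries, and was 2.04-fold higher than Ctrl (95% interval 1.59 to 2.62, edgeR adjusted p = 0.00194). Both calls against Ctrl held in 23 of 23 alternatives. The step from DAC to DACTPL was not called for either gene (edgeR adjusted p = 0.275 and 0.297). Every DACTPL library was above every DAC library for 9.52% of all genes tested, and the share above all 9 other libraries was not counted. IFITM2 had 25.7, 21.6 and 22.4 CPM and did not differ beyond the spread (log2 fold change -0.08, 95% interval -0.27 to 0.10). IFITM1 made up 10.1 ± 0.376% of the family's TPM in DACTPL, and IFITM2 18.6 ± 0.684%.

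**Figure D3:**
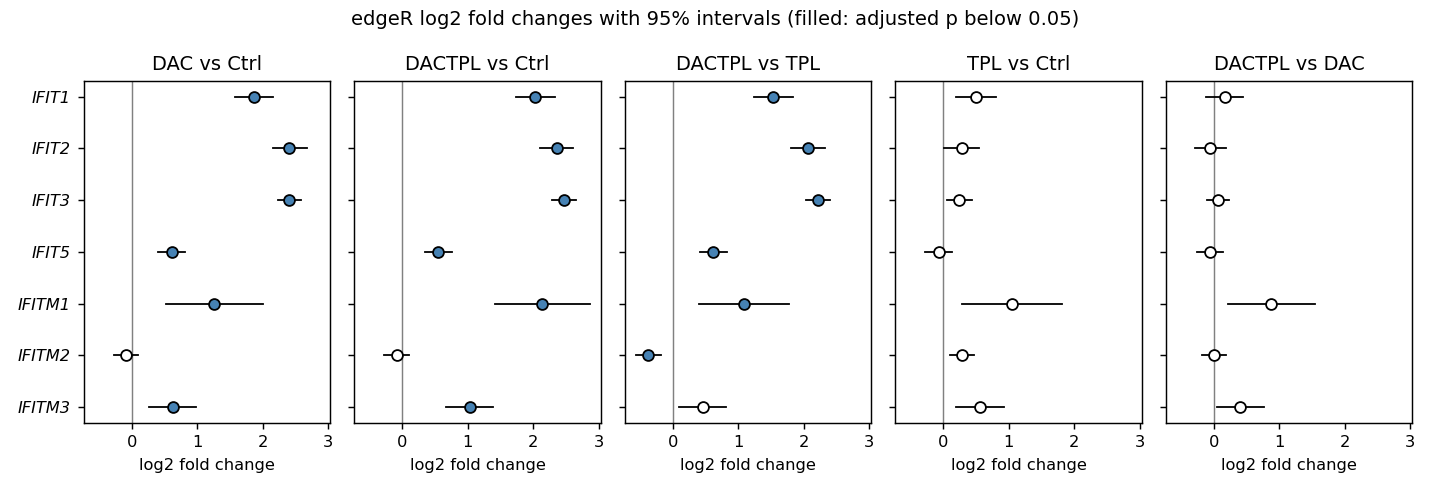
Log2 fold changes of the 7 genes in 5 comparisons with 95% intervals, filled where the adjusted p was below 0.05. IFIT2 and IFIT3 lie between 2.07 and 2.47 in the 3 comparisons that differ by decitabine, and no gene is filled for TPL vs Ctrl or DACTPL vs DAC.

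Triptolide alone called none of the 7 members against Ctrl in edgeR, beside 2.47% of all genes tested. At an unadjusted p under 0.05 there were 6, beside 18.9% of all genes tested. DESeq2 called 4 (IFIT1, IFITM1, IFITM2 and IFITM3), beside 6.43% of the genes to which it gave an adjusted p. IFIT1 had 18.3, 18.8 and 24.8 CPM in TPL, above its Ctrl libraries (log2 fold change 0.50, 95% interval 0.20 to 0.80, edgeR adjusted p = 0.0803). IFITM3 had 52.0, 48.6 and 71.7 CPM (log2 fold change 0.57, 95% interval 0.20 to 0.93, adjusted p = 0.0952). IFITM1 had 3.76, 4.55 and 8.87 CPM (log2 fold change 1.05, 95% interval 0.29 to 1.81, adjusted p = 0.132). For these genes every TPL library was above every Ctrl library, as for 11.3% of all genes tested, and replicate 3 was the highest in both groups. The differences were smaller without TPL replicate 3, at 0.34 for IFIT1, 0.38 for IFITM3 and 0.58 for IFITM1 (edgeR adjusted p = 0.134, 0.161 and 0.291). Each of these genes passed with the libraries numbered 3 left out of every group (edgeR adjusted p = 0.0025, 0.00147 and 0.00977). The differences there were 0.52 for IFIT1, 0.52 for IFITM3 and 0.78 for IFITM1. On the log2(TPM + 1) scale, where the median of all genes was -0.29, they were 0.11, 0.18 and 0.55 (limma adjusted p = 0.467, 0.392 and 0.136). IFIT5 had 17.5, 16.4 and 14.3 CPM in TPL and overlapped Ctrl, with a log2 fold change of -0.07 (adjusted p = 0.751). IFIT2 also overlapped Ctrl (0.29, edgeR adjusted p = 0.23). IFIT3 (0.25, adjusted p = 0.143) and IFITM2 (0.29, adjusted p = 0.0952) did not, with every TPL library above every Ctrl library. Without Ctrl replicate 3, IFIT1 (0.68, adjusted p = 0.0182) and IFITM3 (0.71, adjusted p = 0.0466) passed. The shares of all genes tested that passed in TPL against Ctrl with these libraries left out are not given here. In DACTPL against DAC, leaving out the libraries numbered 3 called 13.4% of all genes tested, against 0.0315% with all libraries. In the authors' deposited table IFIT1, IFITM1 and IFITM3 had adjusted p-values of 0.0156, 0.0316 and 0.0134 for TPL against Ctrl, with log2 fold changes of 0.40, 0.47 and 0.44.

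Triptolide added to decitabine (DACTPL against DAC) called none of the 7 members in edgeR, beside 0.0315% of all genes tested, and none in DESeq2, beside 0.514%. If DACTPL had 3 nM decitabine, this comparison differs by decitabine dose as well as by triptolide. At an unadjusted p under 0.05 in edgeR there were 2, beside 15.2% of all genes tested. For IFIT1 the 95% interval of the log2 fold change ran from -0.12 to 0.45, for IFIT2 from -0.29 to 0.19, for IFIT3 from -0.11 to 0.23 and for IFIT5 from -0.26 to 0.14. The IFIT genes did not differ beyond their spread, and changes of a size within these intervals could not be told from none. IFITM1 and IFITM3 were the 2 members whose groups did not overlap, with every DACTPL library above every DAC library, as for 9.52% of all genes tested. Their log2 fold changes were 0.88 (95% interval 0.22 to 1.54, adjusted p = 0.275) and 0.40 (95% interval 0.05 to 0.76, adjusted p = 0.297). With the libraries numbered 3 left out of every group both passed, at 1.20 (adjusted p = 0.00032) and 0.56 (adjusted p = 0.000898), where 13.4% of all genes tested were called. In the authors' deposited table the adjusted p-values of this comparison were 0.0891 for IFITM1 and 0.211 for IFITM3.

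DAC against TPL completes the order of the groups. It called 4 members higher, beside 6.45% of all genes tested, and 1 lower, beside 4.50%. IFIT1, IFIT2, IFIT3 and IFIT5 were higher in DAC by log2 fold changes of 1.37, 2.12, 2.16 and 0.68, and IFITM2 was lower, at -0.38 (edgeR adjusted p = 0.0142). The IFIT genes therefore fell into a low pair, Ctrl and TPL, and a high pair, DAC and DACTPL, with a called step between the pairs and no called step within either in edgeR. DESeq2 also called IFIT1 in TPL against Ctrl (0.50, adjusted p = 0.0129). The mean levels of IFITM1 and IFITM3 were instead ordered Ctrl, TPL, DAC and DACTPL, and no neighbouring step of that order was called in edgeR. DESeq2 called the step from Ctrl to TPL for both (adjusted p = 0.0119 and 0.0116), as did the authors' deposited table. In the authors' deposited table of z-scores, a list of 704 genes that held 6 of the 7 members but not IFITM2, the group means of IFITM3 were -1.19, -0.09, 0.08 and 1.20 in that order.

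Within groups 5 of the members moved together. After each gene's group means were taken off, log2 CPM of IFIT1, IFIT2 and IFIT3 correlated with r from 0.92 to 0.95 over the 12 libraries, IFITM1 with IFITM3 with r = 0.93, and these IFIT genes with these IFITM genes with r from 0.70 to 0.89. IFIT5 ran the other way, with r from -0.70 to -0.55 against the other IFIT genes. These are descriptions over libraries that share depth and length effects. Over all 12 libraries the genes of most similar pattern by Pearson correlation of log2 CPM were IFIT3, OASL and CCND3 for IFIT2, and OASL, IFIT2 and SRGN for IFIT3, with r from 0.995 to 0.998. For IFIT1 they were ISG15, S100A4 and CYP24A1 (r = 0.992 each), and for IFIT5 HAS2, CDH5 and HERC5 (0.966 to 0.974). IFITM1 was most like IFITM3, CEACAM6 and FSTL4 (0.977 to 0.983) and IFITM3 most like HLA-B, IFITM1 and CEACAM6 (0.980 to 0.988). IFITM2 had lower values, with TCTN1, REEP6 and KLC3 at 0.890 to 0.914.

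The other genes of the pathway were examined from lists ordered by role. Of 22 interferon genes in the table, 12 had no counts in any library and 19 had at most 5 in all. IFNE, an interferon of epithelia, was the only ligand that passed the filter, and it was not called. IFNL1, a type III interferon, had 1 count over the Ctrl libraries, 3 over TPL, 15 over DAC and 16 over DACTPL. Its ratio was 15.3 for DAC against Ctrl (95% counting interval 2.35 to 642) and 17.7 for DACTPL against Ctrl (2.74 to 741), which covers counting error only. IFNB1 had 0 to 2 counts per library. None of 9 interferon receptors and JAK kinases was called in DAC against Ctrl (edgeR; 2 at an unadjusted p under 0.05, beside 25.9% of all genes tested). JAK1, the kinase shared by these receptors, had 142 ± 5.64 CPM in Ctrl, against 142 ± 3.77 CPM in DAC. With both drugs against vehicle JAK1 fell (-0.16, edgeR adjusted p = 0.0496) and IFNGR1, a chain of the receptor for interferon gamma, rose (0.44, adjusted p = 0.000314). Of all genes tested 4.83% were called lower there and 8.64% higher. IFNGR1 also rose in TPL against Ctrl (0.41, adjusted p = 0.00606), beside 1.68% of all genes tested. In DACTPL against TPL the receptor gene IFNLR1 rose (0.40, adjusted p = 0.0139), beside 6.93% of all genes tested.

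Downstream of the receptors, 3 of 9 transcription factors of the response rose in DAC against Ctrl, among them IRF7 by a log2 fold change of 0.73 and IRF9 by 0.50. For this and the other lists in DAC against Ctrl, the share of all genes tested called higher was 6.27%. Of 10 sensors of RNA and DNA 4 rose, namely DHX58 (1.94), DDX58, which encodes RIG-I (0.69), IFIH1, which encodes MDA5 (0.59), and TMEM173, which encodes STING (0.35). Of 7 genes listed for feedback only UBA7 rose (1.33), and it encodes the activating enzyme for ISG15 rather than an inhibitor. The other 6, among them USP18 (0.13, edgeR adjusted p = 0.195), did not pass. Of 49 other interferon-stimulated effectors 28 rose and none fell, with a median log2 fold change of 0.51. The largest among those with at least 1 CPM in DAC were IFI27 (4.19), BST2 (3.03), OASL (2.67) and IFI44 (2.58). In DACTPL against TPL, 29 of the 49 effectors, 4 of the 9 factors and 5 of the 10 sensors rose, beside 6.93% of all genes tested. In TPL against Ctrl 4 of the 49 effectors rose, namely OASL and IFI35 (0.45 each), ISG20 (0.41) and PSMB8 (0.36), beside 1.68% of all genes tested. Of 14 tested host partners of the 2 families, such as the translation factor EIF3E and the IFITM ligase NEDD4, 1 rose in DAC against Ctrl (ZMPSTE24, 0.19). That count is close to the 6.27% of all genes tested.

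**Figure D4:**
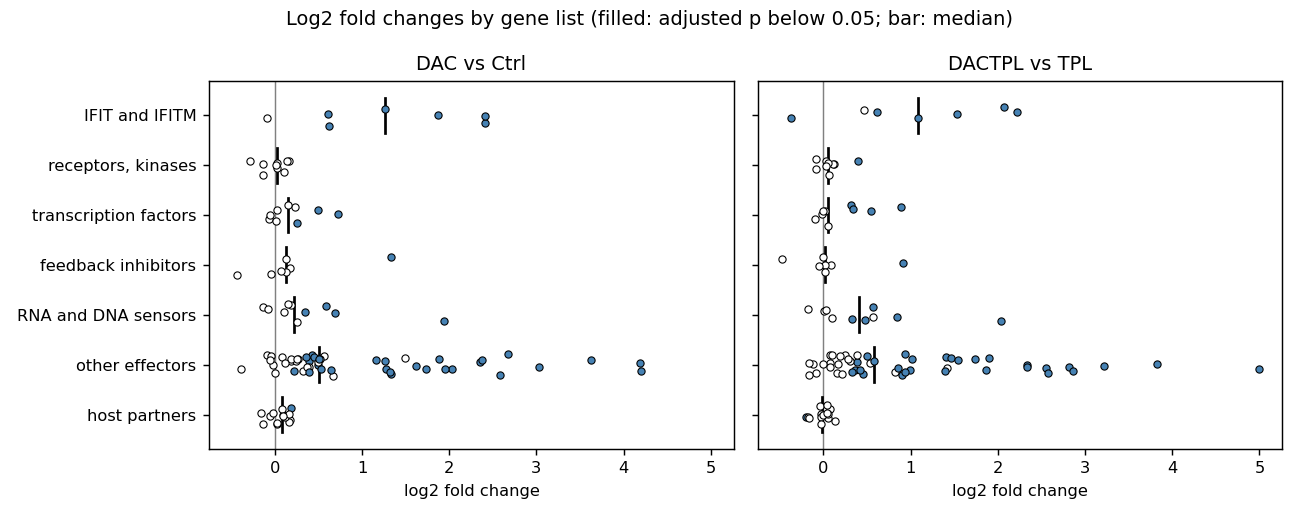
Log2 fold changes of the members and of 6 pathway lists in DAC vs Ctrl and DACTPL vs TPL, 1 point per tested gene, filled where the adjusted p was below 0.05, with a bar at each list's median. The members' medians are 1.26 and 1.09, the medians of the receptors and of the host partners lie near 0, and the other effectors reach 4.20 and 4.99.

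Relatives and neighbours of the 2 families were also read. IFITM5 had 0 counts in all 12 libraries, IFIT1B and IFITM4P had 0 to 2 counts per library, and IFITM10 had 343 to 689 counts and was not called in any of the 7 comparisons. Of the 6 tested genes nearest the IFIT cluster, FAS rose in DAC against Ctrl (log2 fold change 0.46, edgeR adjusted p = 0.0258), and the 6 ranged from -0.14 to 0.57. Of the 6 nearest the IFITM cluster, PSMD13 rose (0.29) and SIGIRR fell (-0.45). Among all genes tested 6.27% were called higher in that comparison and 3.59% lower. LIPA overlaps IFIT1, IFIT2 and IFIT3 on the opposite strand in the reference annotation. Because the strand setting of the counting is not given in the sources used here, reads of the 2 strands may not be told apart, and LIPA itself had a log2 fold change of 0.17 (adjusted p = 0.0439) in DAC against Ctrl. Of the stretches of 100 bases in IFITM1 transcripts 5.6% are also in IFITM3, and 5.9% of those in IFITM3 are also in IFITM1. For the other 5 members no stretch was shared within the families, so reads shared between IFITM1 and IFITM3 could move their counts. Expected counts were off a whole number by over 0.005 in all 12 libraries for IFITM1 and IFITM3, in 11 for IFIT3, in 8 for IFITM2, in 5 for IFIT1 and in 4 each for IFIT2 and IFIT5.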

How the data were processed

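Per the labels' protocols, libraries were prepared from total RNA with a stranded kit and read from both ends (100 bases each). The authors deposited expected counts and TPM per gene; the submitters' processing notes name RSEM 1.2.09 and hg19. They also deposited log2 fold changes with p-values, for which the notes name DESeq2 and R 4.0.4. A further table deposited by the authors gives a score (a z-score) per gene and library for genes they chose. The aligner, annotation and strand setting are not given in the sources used here.

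Expected counts were rounded and tested with edgeR 4.0.16 under R 4.3.3: TMM, filterByExpr by group, 1 robust quasi-likelihood fit over the 12 libraries (8 residual degrees of freedom) and adjustment over 15890 genes. Depth was 26.4 to 47.0 M counts and TMM factors 0.957 to 1.028. CPM uses TMM-scaled totals. Intervals are 95% intervals from the fit, and errors are SD over 3 libraries. Alternatives used DESeq2 1.42.0 and limma 3.58.1 on log2(TPM + 1) and log2(TPM + 0.1), other scalings and filters, 2 groups alone, a gene-length offset, a replicate block and left-out libraries. This fit was first tested on simulated counts with known changes. Named were all 7 members, up to 4 called genes a list with the largest change and at least 1 CPM in the higher group, the most abundant genes of a list with no call, the 3 nearest tested genes on each side of a cluster and the 3 genes of most similar pattern; a selection is printed. Further genes named as examples (EIF3E, NEDD4, USP18, IFNB1, IFNL1, LIPA) were chosen after their values were seen. Members and lists were chosen with earlier results of these data known. Some genes of the lists are not reported here.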

Additional observations from a re-analysis of the deposited data

How the results depend on the processing

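IFIT1, IFIT2, IFIT3 and IFIT5 kept their direction and call in DAC vs Ctrl, DACTPL vs Ctrl, DACTPL vs TPL and DAC vs TPL under all 23 alternatives, as did IFITM1 and IFITM3 in DACTPL vs Ctrl. IFITM1 in DAC vs Ctrl was called in 11 of 23 (log2 fold change 0.91 to 1.46, adjusted p up to 0.128) and IFITM3 in 14 of 23 (0.46 to 0.77, up to 0.23). IFITM1 lost that call without any 1 of the Ctrl or DAC replicates and IFITM3 without Ctrl replicate 1 or 2 or DAC replicate 2 or 3; both lost it without DACTPL replicate 3, and IFITM1 without DACTPL replicate 1. IFITM2 in DAC vs TPL was called in 19 of 23 and lost without DAC replicate 1 or 2. It was also lost in limma on TPM with either pseudocount (-0.11 each, adjusted p = 0.393 and 0.386), where the medians of all genes were 0.207 and 0.258. For TPL vs Ctrl, where edgeR called 0 members, DESeq2 called 4, the replicate block 3 (IFIT1, IFITM1 and IFITM3, adjusted p = 0.00797, 0.03 and 0.0145), limma on TPM 1 with either pseudocount (IFIT5, lower), and leaving out number 3 of every group 3; leaving out each library in turn gave 0 to 2. For DACTPL vs DAC the replicate block called 1 (IFITM1, 0.94, adjusted p = 0.0378) and leaving out number 3 of every group 2, against 0; for the interaction leaving out number 3 called 1 (IFIT1, -0.36, adjusted p = 0.045). The cause was not tested. In TPL vs Ctrl limma on log2(TPM + 0.1) called 10907 of 15890 genes, the most of any alternative, so the IFIT5 call there does not set that gene apart. On TPM the median of all genes in TPL vs Ctrl moved to -0.29 and -0.36, and IFIT2, IFIT3 and IFITM2 changed sign there; 47 sign changes among 1120 values, not counting values that round to 0, were between values not called either way. Same-numbered libraries correlated with r from -0.193 to 0.523 and 12 of 18 pairs exceeded 0.1, so the numbers were not taken as pairs, although the pairs of libraries numbered 3 lay between 0.143 and 0.523 and 19 of 36 correlations were highest with the own number (11 of 12 for number 3); the block also called IFITM3 in DACTPL vs TPL (0.49, adjusted p = 0.0122). All genes called ranged from 753 to 2806 in DAC vs Ctrl (1566 as reported), 23 to 10907 in TPL vs Ctrl (392), 1146 to 4764 in DACTPL vs Ctrl (2141), 0 to 2134 in DACTPL vs DAC (5; the highest with number 3 of every group left out), 784 to 5786 in DACTPL vs TPL (1671), 819 to 8126 in DAC vs TPL (1740) and 0 to 5103 for the interaction (1). With 2 groups alone the interaction has no value. Depth limits the interferon genes, 19 of 22 of which had at most 5 counts in all.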
